A study of Mus musculus with 4 samples.

Results

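The cyclin-dependent kinase (CDK) inhibitors and the retinoblastoma (RB) proteins, the brakes that hold a cell out of the cell cycle, were followed across 4 arrays of bone marrow stem and progenitor cells. The set comprised 10 genes of the 22563 that could be named on the array: Cdkn1a, Cdkn1b, Cdkn1c, Cdkn2a, Cdkn2b, Cdkn2c, Cdkn2d, Rb1, Rbl1 and Rbl2. They were taken by gene name from the array annotation and were read by 16 of the 55681 probes. The cells were LSK cells, sorted as lineage-negative, Sca-1-positive and c-Kit-positive, in which blood stem cells and early multipotent progenitors are found. They came from bone marrow of lethally irradiated mice that had received E14.5 fetal liver cells of 1 of 4 genotypes, with C57B6 given as the background strain. The double mutant group carried the TET2 knock-down together with the JAK2V617F transgene and was collected 13 weeks after transplantation. The JAK2V617F group carried the transgene alone and was collected at 16 weeks, the TET2KD group carried the knock-down alone and was collected at 10 weeks, and the WT group, with neither lesion, was collected at 16 weeks. The promoter of the transgene and the means of the knock-down are not given in the sources used here. The design names 5 mice for each genotype, but each genotype was represented by 1 array, and whether the mice were pooled is not stated. TET2 oxidises 5-methylcytosine in DNA, and JAK2V617F is the activated kinase of myeloproliferative neoplasms.

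Entry into S phase is controlled by cyclin D with CDK4 or CDK6 and by cyclin E with CDK2, which phosphorylate the RB proteins and release E2F transcription factors. The Cip/Kip inhibitors p21 (Cdkn1a), p27 (Cdkn1b) and p57 (Cdkn1c) bind cyclin-CDK complexes broadly. The INK4 inhibitors p16 (Cdkn2a), p15 (Cdkn2b), p18 (Cdkn2c) and p19 (Cdkn2d) bind CDK4 and CDK6. The RB protein (Rb1) restrains activating E2F factors, whereas p107 (Rbl1) and p130 (Rbl2) join E2F4 and the MuvB core in the DREAM complex, which represses cell cycle genes in resting cells. In mouse marrow p57 is known for its part in stem cell quiescence, p18 as a limit on stem cell self-renewal, and p16 as a gene silenced by the Polycomb protein Bmi1.

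Each value below is the signal of a 60-base probe, so the stretch of transcript that a probe reads decides what is measured. The first 30 bases of the probes on which the results turn are given 5′ to 3′ in transcript sense with their mm9 positions. They are printed because probes of Cdkn1a, of Cdkn1b and of Rbl1 are annotated to different transcripts and gave different patterns. The array annotation names a transcript for each probe but no exon or untranslated region.
Cdkn1a probe 1, A_51_P363947, chr17:29237377-29237406 (+): ctaagggagctcacaggacactgagcaatg
Cdkn1a probe 2, A_55_P1976204, chr17:29235299-29235328 (+): tggggtagtttccatagtgacccgggtcct
Cdkn1b probe 1, A_52_P673863, chr6:134873606-134873635 (+): attagccaagcaaccataagactctagtca
Cdkn1b probe 2, A_55_P2026562, chr6:134875424-134875453 (+): gtgcttaaaaggttgcatactgagccaagt
Cdkn1c, A_51_P339540, chr7:150644783-150644812 (-): cgtagagcagcccacggttttgtggaaatc
Cdkn2c, A_55_P2074796, chr4:109333538-109333567 (-): cagtgtctgacttggagactttgttttaaa
Cdkn2d, A_55_P2022251, chr9:21092964-21092993 (-): gataacatgagttcatttttctttcttgga
Rb1, A_51_P136888, chr14:73595438-73595467 (-): attttcagagatcctgcttcgagatttctt
Rbl1 probe 1, A_51_P286665, chr2:156972173-156972202 (-): acactggaggtttagccttctgaagaatca
Rbl1 probe 2, A_55_P2024773, chr2:157000791-157000820 (-): ccgagaggaattggaggaggggaaaacttg
Rbl2, A_52_P117325, chr8:93647120-93647149 (+): atggtgtgaactttggtaggtacaagcctt

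Levels are given as a percentage of the 75th percentile of an array's non-control spots. That percentile was 144, 130, 120 and 128 signal units in the double mutant, JAK2V617F, TET2KD and WT arrays, 49.4% to 54.7% of spots were well above background, and no spot was saturated. With 1 array per genotype no p-value can be given. The only error that could be measured was that of repeated spots within an array, and the SD of a difference between single spots of 2 arrays was 0.245 to 0.270 on the log2 scale. This SD was pooled over signal levels. Within an array the SD of repeated spots was 0.22 to 0.27 below the 75th percentile and 0.07 to 0.09 above it. Limits of 2 SD of spot error use the pooled value, which is wide for bright probes and narrow for dim ones. Spot error leaves out mice, sorting and amplification, so "higher" and "lower" describe these arrays. The 3 comparisons with WT share its array, and apart from JAK2V617F and WT the genotypes differed in time after transplantation, so genotype and time cannot be told apart. Tet2 stood at 60.3%, 73.1% and 27.3% of the WT signal in the double mutant, JAK2V617F and TET2KD arrays on 1 probe, and at 61.6%, 105% and 56.3% on another, while its remaining probe was above background in the double mutant alone. Jak2 stood at 106%, 95.8% and 110% of WT, and whether its probe reads the transgene is not known. Socs2, a feedback gene of JAK-STAT signalling, read 275%, 423%, 29.7% and 9.21% on its brightest probe in the double mutant, JAK2V617F, TET2KD and WT, the last not well above background. Of 7 markers of the LSK gate, 6 were well above background on every array and Slamf1 on none. Among markers of mature cells Ms4a1, Cd3d, Cd3g and Cd8a were below background on all arrays, while the summed neutrophil markers ranged from 21.3 to 94.1 and the erythroid markers from 19.1 to 50.2 times an array's 75th percentile. The sums ranged from 27.7 to 38.6 for monocytes, 8.24 to 15.3 for megakaryocytes, 3.75 to 19.2 for B and plasma cells, 21.1 to 36.5 for T and NK cells, and 25.9 to 195 for mast cells, basophils and eosinophils. In a sorted population fewer cells of a type and less RNA per cell cannot be told apart.

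Of the 10 genes, 8 could be compared between the double mutant and WT, meaning that a probe was well above background on at least 1 of the arrays. Cdkn1a and Rb1 were at least 2-fold higher and Cdkn1b was at least 2-fold lower, which is 3 of 8 genes, while 31.9% of 14818 genes compared differed that much (15.3% higher, 16.6% lower). Between JAK2V617F and WT, Cdkn1a was higher and Rbl2 lower among 8 genes compared, against 31.2% of 14897 genes in either direction (15.5% higher, 15.7% lower). Between TET2KD and WT the same 2 genes, Cdkn1a higher and Rbl2 lower, passed among 6 compared, against 33.4% of 14315 genes (15.9% higher, 17.5% lower). Between the double mutant and JAK2V617F, Rb1 alone of 8 genes compared differed 2-fold and was higher, against 25.0% of 14982 genes (12.3% higher, 12.7% lower). Cdkn1a and Rb1 were higher in the double mutant than in TET2KD among 8 compared, against 31.3% of 14565 genes (15.8% higher, 15.5% lower). The number of brake genes past 2-fold was thus near the background of the array, and what follows describes single genes. Their median log2 difference from WT was 0.33 in the double mutant, 0.54 in JAK2V617F and -0.26 in TET2KD, beside medians of -0.01, -0.01 and -0.05 over all genes. Only genes with a probe above background enter these counts and medians. Rb1 and Cdkn1c, dim in WT, entered the double mutant and JAK2V617F medians as higher but could not be compared in TET2KD. The 3 medians thus cover different genes and should not be read against each other.

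**Figure D1:**
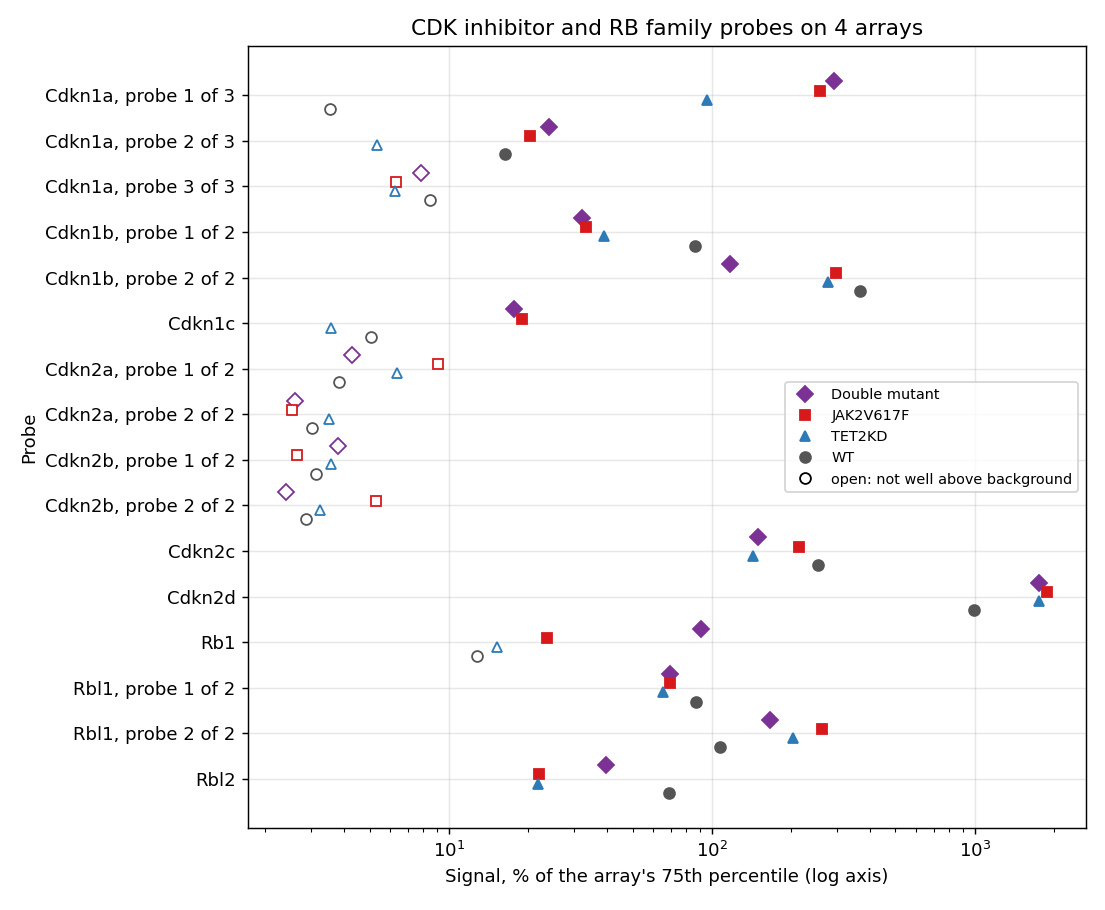
Signal of the 16 probes (y axis) as a percentage of the array's 75th percentile (x axis, log scale) on the double mutant, JAK2V617F, TET2KD and WT arrays. Open symbols were not well above background. Cdkn1a probe 1 read 291% in the double mutant, against 3.55% in WT, and the 4 probes of Cdkn2a and Cdkn2b are open on every array.

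Cdkn1a encodes p21, a p53-induced inhibitor of CDK2 complexes, and its probe 1 showed the widest spread of the set. The probe lies at chr17:29237377-29237436, reads the RefSeq transcript and is spotted 10 times on each array. Its level was 291% in the double mutant, 259% in JAK2V617F, 96.2% in TET2KD and 3.55% in WT, where it was not well above background. The 3 mutant arrays were all far above WT. The double mutant and JAK2V617F differed by 0.17 on the log2 scale, within 2 SD of the pooled error of single spots. That limit is wide here, since each level is a mean of 10 spots, with an SD over spots of 0.08 on both arrays. Over the 10 spots the signal averaged 418 ± 22.9 in the double mutant, 337 ± 17.9 in JAK2V617F, 116 ± 10.2 in TET2KD and 4.79 ± 1.89 in WT (SD over spots of 1 array, not over mice). The lowest spot of the TET2KD array read 95.8 and the highest of the WT array 9.19, so the spots did not overlap. Against WT, p21 signal was at least 23.4-fold higher in the double mutant, at least 20.8-fold in JAK2V617F and at least 7.75-fold in TET2KD. These folds are lower bounds, set against the lowest signal well above background on the WT array. It was 3.02-fold higher in the double mutant than in TET2KD and 1.12-fold higher than in JAK2V617F. Without JAK2V617F the TET2KD lesion went with a log2 difference of at least 2.95, and with JAK2V617F with one of 0.17.

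Cdkn1a probe 2, at chr17:29235299-29235358 and 2.08 kb from probe 1, reads a transcript annotated in Ensembl alone, and it did not show the spread of probe 1. Its level was 24.1% in the double mutant, 20.4% in JAK2V617F, 5.33% in TET2KD, where it was not well above background, and 16.4% in WT. The double mutant was 1.47-fold and JAK2V617F 1.24-fold higher than WT, the second within 2 SD of spot error, and TET2KD was at least 1.14-fold lower. Probe 3, on an alternative RefSeq transcript at chr17:29227986-29228045, was below background on all 4 arrays at 6.27% to 8.51%. Averaged over the probes compared, as the counts above require, Cdkn1a differed from WT by 2.55, 2.35 and 1.39 on the log2 scale in the double mutant, JAK2V617F and TET2KD. With normexp background correction these averages were 1.33, 1.22 and 0.61. The average in TET2KD joins probes of opposite sign, and it missed 2-fold with that correction, without a filter on dim probes (0.90) and with the deposited log2 values (0.95). With probes above background on both arrays as the only ones used, probe 1 drops out and the Cdkn1a difference was 0.55 in the double mutant and 0.31 in JAK2V617F. The summed level of the LSK gate markers was 45.1, 57.6, 69.1 and 84.6 times the 75th percentile in the double mutant, JAK2V617F, TET2KD and WT arrays, the reverse of the order of probe 1, and its part in the p21 result was not tested.

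**Figure D2:**
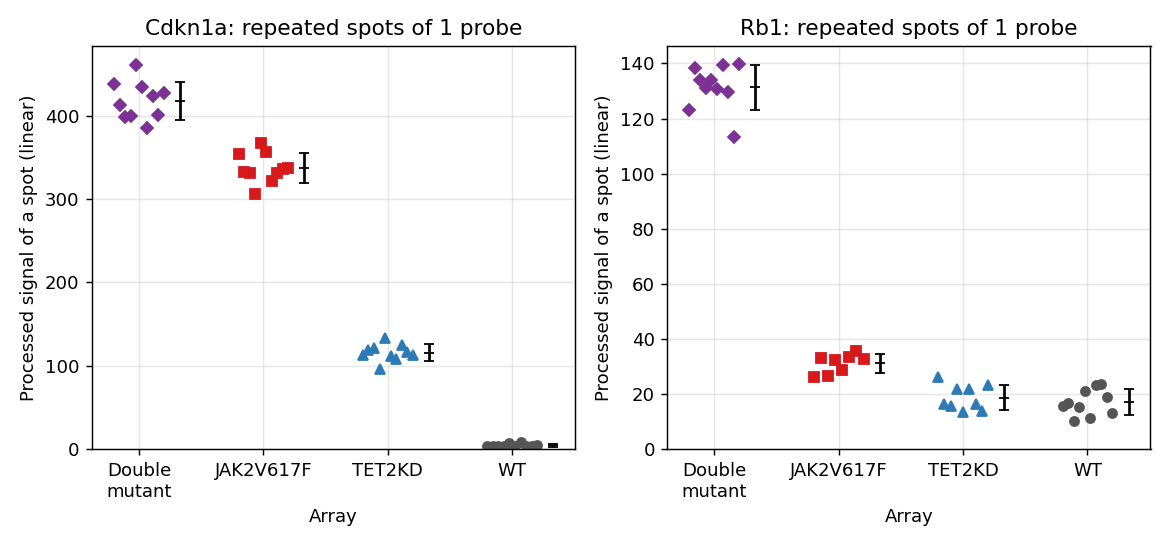
Processed signal (y axis, linear) of every used spot of Cdkn1a probe 1 (left) and of the Rb1 probe (right) on the 4 arrays (x axis), with the mean and SD over spots beside them. Spots of 1 array are technical repeats: the Cdkn1a means are 418, 337, 116 and 4.79, and the Rb1 means are 131, 31.1, 18.7 and 17.0, in the double mutant, JAK2V617F, TET2KD and WT.

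Cdkn1b encodes p27, which accumulates in resting cells and is degraded on cycle entry, and both of its probes were highest in WT. Probe 1, at chr6:134873606-134873665, had a level of 32.2% in the double mutant, 33.3% in JAK2V617F, 39.1% in TET2KD and 86.1% in WT. Probe 2, at chr6:134875424-134875483 and 1.82 kb away, had a level of 117% in the double mutant, 297% in JAK2V617F, 277% in TET2KD and 368% in WT. The double mutant was lower than WT on both probes, by log2 differences of -1.42 and -1.65. For the single mutants the probes differed in size: JAK2V617F stood at -1.37 and -0.31, and TET2KD at -1.14 and -0.41. The values of probe 2 lay within 2 SD of the pooled spot error, a wide limit for a probe this bright. On probe 2 the double mutant was 2.54-fold lower than JAK2V617F and 2.37-fold lower than TET2KD, while on probe 1 the 3 mutant arrays lay within 2 SD of spot error of their neighbours in level. The mean over the probes, -1.54, kept Cdkn1b past 2-fold in the double mutant under every alternative run (-1.65 to -1.06). The annotation names a different transcript for each probe, an Ensembl one for probe 1 and a RefSeq one for probe 2.

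Cdkn1c encodes p57, an imprinted inhibitor known in mouse stem cells for maintaining quiescence. Its probe at chr7:150644753-150644812 read 17.7% in the double mutant and 18.9% in JAK2V617F, against 3.58% in TET2KD and 5.06% in WT, the last 2 not well above background. The arrays that carry JAK2V617F were thus the ones with p57 well above background, at least 1.43-fold (double mutant) and at least 1.53-fold (JAK2V617F) above WT. The double mutant was at least 1.22-fold above TET2KD, a bound within 2 SD of spot error. All 4 values were low. With normexp correction, which compresses low signals, the log2 difference from WT was -0.03 in the double mutant and 0.10 in JAK2V617F, and that of the double mutant from TET2KD turned to -0.11.

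Cdkn2a, the source of p16 and p19ARF, and its neighbour Cdkn2b, which encodes p15, are silenced in young stem cells. None of their 4 probes was well above background on any array, with levels of 2.53% to 9.11% for Cdkn2a and 2.41% to 5.29% for Cdkn2b. No fold is given where both sides are below background, and an absent signal at this sensitivity does not show absent transcript.

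Cdkn2c and Cdkn2d, which encode p18 and p19INK4d, were measured on every array and differed from WT in opposite directions. Cdkn2c (chr4:109333508-109333567) read 150% in the double mutant, 216% in JAK2V617F, 144% in TET2KD and 254% in WT. The double mutant was 1.70-fold and TET2KD 1.76-fold lower than WT, and JAK2V617F was 1.18-fold lower, within 2 SD of spot error. Cdkn2d (chr9:21092934-21092993) read 1757% in the double mutant, 1891% in JAK2V617F, 1757% in TET2KD and 994% in WT. All 3 mutant arrays were higher than WT, by 1.77-fold, 1.90-fold and 1.77-fold, and they lay within 2 SD of spot error of each other. Neither gene reached 2-fold in any comparison.

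**Figure D3:**
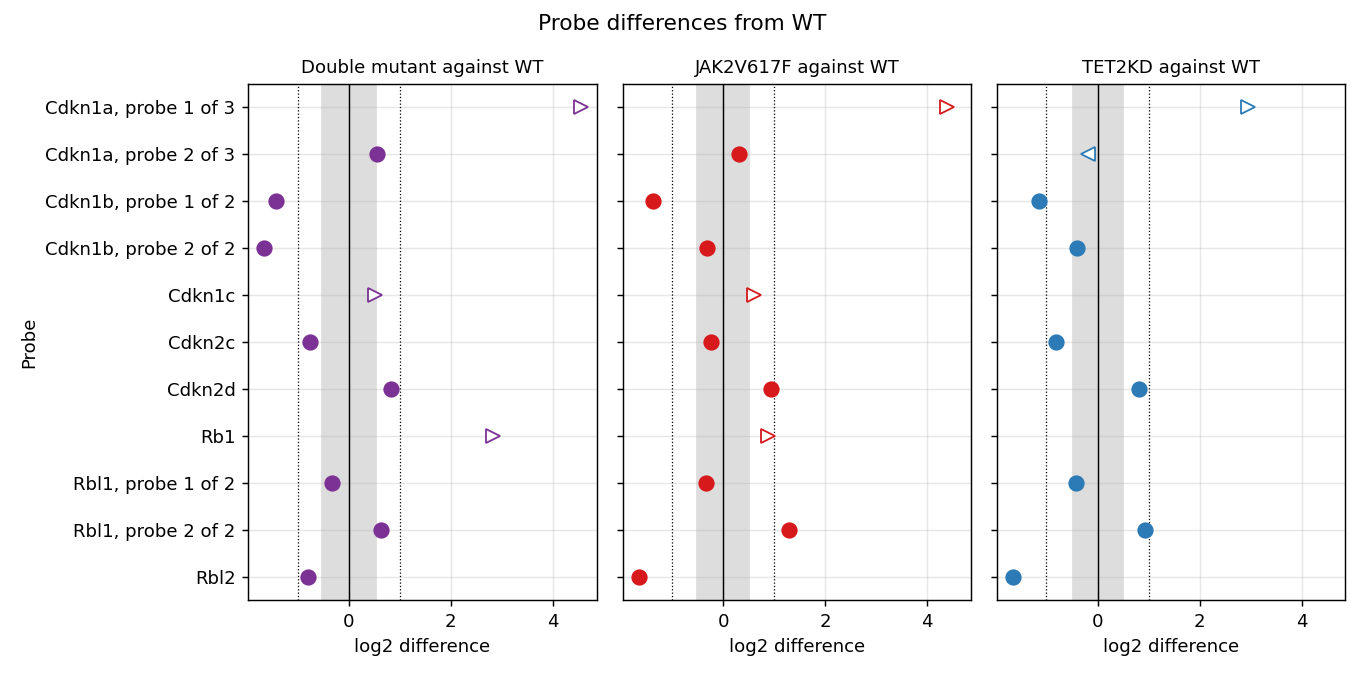
Log2 difference from WT (x axis) of each probe that could be compared (y axis), for the double mutant (left), JAK2V617F (middle) and TET2KD (right). Triangles mark probes with 1 side not well above background and point away from 0. They are bounds except for Rb1, whose triangles are ratios to a dim signal. The grey band is 2 SD of the difference of single spots, pooled over signal levels, and dotted lines mark 2-fold. Cdkn1a probe 1 lies right of the band in all 3 panels, while both Cdkn1b probes and Rbl2 lie left of 0.

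Rb1 encodes the RB protein, and its probe at chr14:73595408-73595467, also spotted 10 times, was high in the double mutant alone. Its level was 91.4% in the double mutant, 23.7% in JAK2V617F, 15.2% in TET2KD and 12.8% in WT. The spot signal averaged 131 ± 8.08 in the double mutant, with 10 of 10 spots well above background, and 31.1 ± 3.47 in JAK2V617F, with 8 used and all 8 above. It averaged 18.7 ± 4.60 in TET2KD and 17.0 ± 4.70 in WT (SD over spots), where only 4 of 9 and 3 of 10 used spots were well above background. Rb1 was 7.13-fold higher in the double mutant than in WT, 5.99-fold higher than in TET2KD, and 3.85-fold higher than in JAK2V617F. The WT and TET2KD signals exceeded the lowest signal well above background on those arrays. Folds against them are thus ratios to dim signals and not lower bounds. JAK2V617F was 1.85-fold higher than WT, and TET2KD and WT lay within 2 SD of spot error. With normexp correction the log2 difference of the double mutant was 1.14 from WT and 1.07 from TET2KD, in place of 2.83 and 2.58. From JAK2V617F it was 0.95 in place of 1.94, just short of 2-fold, and that of JAK2V617F from WT was 0.19 in place of 0.89. Rb1 had 1 probe, so no other stretch of its transcript was read.

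Rbl1 encodes p107, which rises with proliferation, and its probes again read different transcripts. Probe 1, on the long transcript at chr2:156972143-156972202, read 69.2% in the double mutant, 69.6% in JAK2V617F, 65.2% in TET2KD and 87.4% in WT. All mutant arrays were lower than WT, by log2 differences of -0.34, -0.33 and -0.42, each within 2 SD of spot error. Probe 2, on a shorter transcript at chr2:157000761-157000820 and 28.62 kb away, read 166% in the double mutant, 262% in JAK2V617F, 204% in TET2KD and 108% in WT. Here the mutant arrays were higher, by 1.54-fold, 2.44-fold and 1.89-fold. The signs of the probes were opposite in all 3 comparisons with WT, so the mean over probes (0.14, 0.48 and 0.25) describes neither.

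Rbl2 encodes p130, the pocket protein that predominates in resting cells, and its probe at chr8:93647120-93647179 was highest in WT. Its level was 39.7% in the double mutant, 21.9% in JAK2V617F, 21.8% in TET2KD and 68.9% in WT. The single mutants were alike within spot error, at 3.14-fold and 3.16-fold below WT, and the double mutant lay between them and WT at 1.73-fold below. Rbl2 was 1.81-fold higher in the double mutant than in JAK2V617F and 1.82-fold higher than in TET2KD. The sum of the single-mutant log2 differences is -3.31, against -0.79 measured in the double mutant. With normexp correction the single-mutant differences were -0.72 (JAK2V617F) and -0.65 (TET2KD), below 2-fold.

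Among members with every probe well above background on all 4 arrays, Rbl2 had the widest range, 1.66 on the log2 scale, followed by Cdkn1b (1.54 as the mean of its probes, 1.42 on probe 1 and 1.65 on probe 2), Cdkn2d (0.93) and Cdkn2c (0.82). Rbl1 has no single range, since its probes spanned 0.42 (probe 1) and 1.28 (probe 2). Over the 3 log2 differences from WT, and among 7976 genes measured on all arrays, the closest to Rbl2 by Euclidean distance were Sel1l (0.14), Mtres1 (0.18), Ccr10 (0.21), Mfsd5 (0.24) and Gadd45gip1 (0.24). Sel1l, for example, stood at -0.77 in the double mutant, -1.76 in JAK2V617F and -1.76 in TET2KD, against -0.79, -1.65 and -1.66 for Rbl2. Closeness over 4 arrays describes these arrays only.

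The set could also be read by which lesion its genes followed. On the arrays that carry JAK2V617F, p21 (probe 1) was higher than on both arrays without it. The wider gap of that probe lay between WT and the mutants. TET2KD was at least 7.75-fold above WT, and the double mutant was 3.02-fold above TET2KD. Cdkn2c was lower in the arrays with the TET2 knock-down (150% in the double mutant, 144% in TET2KD) than in those without it (216% in JAK2V617F, 254% in WT). The double mutant and JAK2V617F lay within 2 SD of the pooled spot error, a wide limit for a probe this bright. Cdkn1a probe 1, Cdkn2d, Rbl1 probe 2, Cdkn1b probe 1 and Rbl2 set WT apart from the 3 mutants by more than 2 SD of spot error. Rb1 set the double mutant apart. Such orders over 4 arrays have no test.

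Promoter sequence was available for 8 of the 10 genes, as 11 RefSeq starts of assembly GRCm38.p6, and was searched on both strands in the 250 bases upstream of each start. It is shown for Cdkn1a and Rbl1 because p21 is the textbook p53 target, p107 a textbook E2F target, and the members of those pathways are described next. The Cdkn1a start below holds 2 matches to the p53 half-site, beginning 73 and 51 bases upstream, and the Rbl1 start holds 1 match to the E2F motif, beginning 18 bases upstream, all in capitals.
Cdkn1a, GRCm38.p6 chr17:29090729-29090978 (+): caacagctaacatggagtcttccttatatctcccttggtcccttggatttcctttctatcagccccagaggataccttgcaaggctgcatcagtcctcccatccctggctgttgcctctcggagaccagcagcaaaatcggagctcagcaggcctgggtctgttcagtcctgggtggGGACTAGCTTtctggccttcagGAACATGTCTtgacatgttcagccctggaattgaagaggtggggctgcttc
Rbl1, GRCm38.p6 chr2:157204535-157204784 (-): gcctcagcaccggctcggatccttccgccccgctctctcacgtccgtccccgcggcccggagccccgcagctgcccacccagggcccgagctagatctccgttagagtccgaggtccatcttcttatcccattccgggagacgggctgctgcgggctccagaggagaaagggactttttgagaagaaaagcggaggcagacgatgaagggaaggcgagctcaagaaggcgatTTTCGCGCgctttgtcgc
The other Cdkn1a start, at chr17:29093519-29093768, holds 0 matches to the p53 half-site, and which start serves the transcript read by probe 1 was not determined. The p53 half-site occurred in 2 of the 11 starts (Cdkn1a and Cdkn2d), and in 7.13% of 32851 promoters. The E2F motif, TTTGGCGC, TTTCCCGC, TTTCGCGC or TTTGCCGC, occurred in 2 of the 11 (Cdkn2a and Rbl1), and in 1.86% of all. The STAT motif TTCNNNGAA occurred in 0 of the 11, and in 7.02% of all, the E box CACGTG in 0 and in 6.02%, TTTGAA in 2 (Cdkn2b and Rbl2) and in 16.0%, and the GC box GGGCGG in 6 and in 32.7%. A match describes letters in this window and no binding.

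Around the brakes, 9 lists of pathway genes were set beside them, each read at 2-fold against the shares of all genes above. Named genes are among those with the largest measured differences of each list, apart from Mdm2, Ccne1, Ccnh and Mnat1, which were chosen after their values were seen. Upstream of the inhibitors, the list of their regulators had 2 of 24 genes higher and 6 lower in the double mutant, 3 and 5 in JAK2V617F, and 4 and 5 in TET2KD. Skp2, the F-box protein that targets p27 for degradation, was higher by 0.68, 2.50 and 2.10 on the log2 scale in the double mutant, JAK2V617F and TET2KD. Foxo3, a transcription factor known to activate Cdkn1b, differed by -1.94, -0.93 and -0.42. Ets1, a transcription factor known in human fibroblasts to activate the p16 gene, stood at -3.58, -3.97 and -2.94.

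The p53 target list, which leaves out Cdkn1a, had 2 of 15 genes higher and 1 lower in the double mutant, 6 and 2 of 17 in JAK2V617F and 4 and 3 of 15 in TET2KD, with median log2 differences of 0.53, 0.84 and 0.29. These medians were 0.18, 0.44 and 0.25 with normexp correction. With only probes above background on both arrays they were 0.22, 0.52 and 0.29. Pmaip1, which encodes the pro-apoptotic protein Noxa, was higher by 4.10, 4.50 and 1.75, the same order of JAK2V617F-bearing arrays over TET2KD as p21. Gadd45a, a stress-induced growth arrest gene, was higher by 1.59, 1.98 and 2.58. Aen, an apoptosis-enhancing nuclease, had the measured difference largest in size in TET2KD, at -2.89, and Sesn2, a stress-induced sestrin, stood at -2.46 there. Polk, a translesion DNA polymerase, was lower, at -3.23 in the double mutant and -4.16 in JAK2V617F. Mdm2, the p53-induced p53 ligase, stood at 0.13, 0.10 and 0.28.

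Downstream of the brakes, 1 of 11 G1 cyclins and kinases was higher in the double mutant (Ccne1), 1 of 10 was higher and 1 lower in JAK2V617F (Ccne1 and Ccnd1), and 1 of 11 was higher and 2 lower in TET2KD (Ccnh, and Mnat1 and Cdc25a). Cdk6, the kinase that INK4 proteins bind, stood at 0.79, 0.59 and -0.40 in the double mutant, JAK2V617F and TET2KD. Among E2F and DP factors 2 of 10 were higher and 2 lower in the double mutant, 0 and 0 in JAK2V617F and 2 and 2 in TET2KD. E2f2, an activating E2F, differed by 1.42 in the double mutant and by -1.43 in TET2KD. In TET2KD the measured differences of E2f7 (1.79) and E2f5 (1.74) were larger in size, and both were higher. In the MuvB core and its partners, with which p107 and p130 form DREAM, 3 of 7 genes were higher and 2 lower in the double mutant, 4 and 1 of 8 in JAK2V617F, and 1 and 2 of 7 in TET2KD. Lin54, the DNA-binding subunit, was higher by 1.44, 2.37 and 0.38, and Foxm1, a mitotic transcription factor that joins MuvB, was lower, at -1.07, -1.57 and -2.22. Among 12 RB-binding corepressors, 1 was higher and 3 lower in the double mutant (Sin3a, and Smarca2, Suv39h1 and Hdac3, the last named after its value was seen), and 1 was lower in each single mutant, Smarca2. Smarca2, a SWI/SNF ATPase, stood at -4.47, -2.23 and -1.73.

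E2F target genes of S phase had 5 of 28 higher and 4 lower in the double mutant, 6 and 3 in JAK2V617F, and 2 and 8 in TET2KD, with medians of 0.51, 0.43 and -0.19. Mcm10, a replication initiation factor, was higher by 1.53 in the double mutant and 1.73 in JAK2V617F. Genes of G2 and mitosis had 5 of 21 higher and 1 lower in the double mutant, 8 and 0 of 21 in JAK2V617F, and 1 and 6 of 20 in TET2KD, with medians of 0.59, 0.67 and -0.63. In the double mutant the measured difference largest in size was that of Cdc20, an activator of the anaphase-promoting complex, at -1.53, and it stood at -3.08 in TET2KD. Kif11, a spindle motor, stood at 1.47, 1.24 and -0.06, and Aurka, a mitotic kinase, at 1.42 in the double mutant and -2.32 in TET2KD. The double mutant and JAK2V617F arrays, with the highest p21 signal, also had the highest S phase and mitosis medians. The S phase counts in either direction were near the shares of all genes on both arrays, 31.9% and 31.2%. The mitosis count in the double mutant was also near its share of 31.9%, while 8 of 21 passed in JAK2V617F. With normexp correction the S phase medians were 0.24 and 0.39 and the mitosis medians 0.39 and 0.57. The stem cell quiescence list had 1 of 19 genes higher and 9 lower in the double mutant, 1 and 7 in JAK2V617F, and 2 and 2 in TET2KD, with medians of -0.91, -0.35 and -0.21. Txnip, which restrains glucose uptake, was lower, at -3.44 in the double mutant and -2.61 in JAK2V617F. The summed level of the LSK gate markers was lowest in the double mutant, and the part of cell composition in these lists was not tested.

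**Figure D4:**
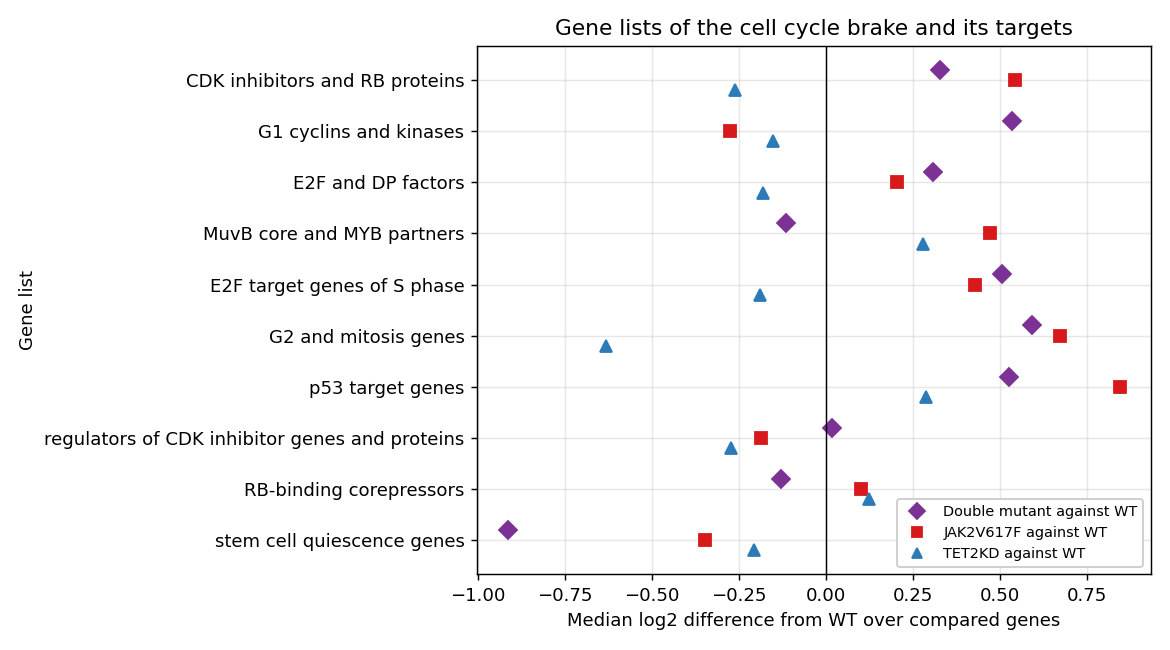
Median log2 difference from WT (x axis) over the compared genes of each list (y axis) for the double mutant, JAK2V617F and TET2KD, with the brake genes in the top line. The brake genes compared numbered 8, 8 and 6, so the symbols of that line do not cover the same genes. The S phase and mitosis lists lie right of 0 in the double mutant and JAK2V617F and left of 0 in TET2KD, and the quiescence list lies left of 0 in all 3.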

How the data were processed

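Per the labels' protocols, Trizol-extracted RNA of sorted LSK cells was amplified isothermally (NuGEN Ovation Pico WTA) and the cDNA carried Cy3. The deposited intensity values are processed signals of 1-colour Agilent arrays made with Feature Extraction 10.7.3.1, per the file headers, with background subtracted and no scaling between arrays. The deposited series table holds log2 values: each column was a shifted log2 of that array's processed signal (0 of 55249 single-spot probes deviated by over 0.001), with column medians of -2.60, -2.60, -2.63 and -2.64 in the double mutant, JAK2V617F, TET2KD and WT. Its direction and lack of gene centring follow from that match. All 4 arrays lay on 1 slide.

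Here log2 signals were scaled to the array's 75th percentile, taken over 59305 spots that are not controls (Python 3.11.15, pandas 2.3.3, numpy 2.4.6). Outlier spots were dropped (162 to 199 per array) and spots of a probe averaged. A repeated probe was well above background when at least 50% of its spots were. A probe was compared when well above background on at least 1 array, a dim side being set to the higher of its own signal and the lowest signal well above background there, and gene values are means over compared probes. Of the probes, 23942 were left without a gene after matching to a RefSeq gene table of GRCm38. Columns that could not be mapped numbered 0. Steps were tested on simulated data.

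The member genes and the lists were chosen with earlier results of these data known. Named were all members, Tet2, Jak2, Socs2, the 5 genes nearest to the member with the widest range, and up to 3 genes per list and comparison with the largest measured difference, probes of 1 sign and both arrays above background. Alternatives were normexp with an offset of 50 (limma 3.58.1 in R 4.3.3), quantile, median and cyclic loess scaling, other filters on dim probes, the brightest probe, the series table and thresholds of 3-fold and 1.5-fold. A rule that counts a repeated probe from 1 spot was added after seeing the data.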

Additional observations from a re-analysis of the deposited data

Results flagged for a closer look

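For 2 probes well above background on all 4 arrays, the difference that went with a lesion ran in opposite directions with and without the other lesion, by more than 2 SD of spot error each way on the processed signal. For Rbl2 (p130) the TET2 knock-down went with a log2 difference of 0.86 in the presence of JAK2V617F and of -1.66 in its absence, and the gap between these was 2.52. Read the other way, JAK2V617F went with 0.87 in Rbl2 with the knock-down and -1.65 without it, which gives the same gap of 2.52. With normexp correction the Rbl2 differences with the other lesion were 0.26 for the knock-down and 0.19 for JAK2V617F, within 2 SD of the spot error of the processed signal, and those without it were -0.65 and -0.72. For Rbl1 (p107) probe 2 the knock-down went with -0.66 with JAK2V617F and with 0.92 without it, a gap of -1.58. Rbl1 probe 1, also well above background on all 4 arrays, did not share this pattern. There the knock-down went with -0.01 with JAK2V617F and -0.42 without it, a gap of 0.41. These differences were not tested, since each rests on 4 arrays with no replicate, and apart from JAK2V617F against WT, both at 16 weeks, time after transplantation cannot be told apart from the lesions.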

How the results depend on the processing

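Of the alternative counts of members past 2-fold, 37 were within 1.5 times the value in the report and 18 were not. At 1.5-fold the share of all genes was 44.8% to 53.9%. With 3 members in the double mutant against WT, the count was 1 with probes above background on both arrays and 6 at 1.5-fold. With 2 in JAK2V617F against WT, it was 1 with normexp, 1 with probes above background on both arrays and 6 at 1.5-fold. With 2 in TET2KD against WT, it was 0 with normexp, 5 at 1.5-fold, and 1 each with probes above background on both arrays, without a filter, with the deposited series table and at 3-fold. With 1 in the double mutant against JAK2V617F, it was 0 with normexp, 2 with the brightest probe and 3 at 1.5-fold. With 2 in the double mutant against TET2KD, it was 1 with normexp, 1 with probes above background on both arrays, 1 at 3-fold and 4 at 1.5-fold. The 10 member differences past 2-fold had 87 alternative values, of which 87 kept their sign and 78 were still at least 2-fold. Of the alternative values of member differences 292 stayed within 1 spot SD and 43 moved further, 0 of those called in the report changing sign, and of the list medians 225 stayed and 18 moved. Without a filter the median of all genes was -0.19 in the double mutant, -0.18 in JAK2V617F and 0.11 in TET2KD against WT. Leaving out a replicate could not be run with 1 array per group. No paired analysis was possible because each group holds 1 array. Signal over background is the limit for Cdkn1c, Cdkn2a, Cdkn2b and, in TET2KD and WT, Rb1.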
